A study of Drosophila melanogaster with 14 samples.

Results

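miR-31a-5p and miR-31b-5p are the mature 5p products of a pair of paralogous microRNA genes of the fruit fly Drosophila melanogaster. They were taken by name (dme-miR-31a-5p and dme-miR-31b-5p in the table), and are 2 of the 466 mature miRNA arms in the deposited count table. Each hairpin precursor can give a 5p arm and a 3p arm. Small RNA from whole embryos was sequenced with 2 libraries for each of 7 labelled stages, which the labels place at 160 min (stage 1), 300 min (stage 2), 530 min (stage 3), 645 min (stage 4), 930 min (stage 5), 1160 min (stage 6) and 1300 min (stage 7). The labels name no treatment, and neither the strain, the genotype nor the event from which the minutes run is given in the sources used here. Nothing says that a stage's libraries were made from separate collections of embryos, so p-values measure only the spread between these libraries, which may be technical.

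MicroRNAs bind mRNAs mainly through the seed near their 5′ end and lower their translation or stability. miR-31 is a family found across animals, and its fly members have nearly identical mature sequences with the same seed, so they are thought to recognise largely the same targets. In fly embryos the family has been linked to segmentation and to ectodermal and gut epithelia. Because the sequences are so alike, how reads were divided between the paralogues is uncertain, and the counting rule for such reads is not given in the sources used here. The table names the arms without their sequences, so none are shown.

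The genes lie apart. In the dm6 annotation mir-31a is at chromosome 2R, 17783795 to 17783886, on the minus strand, between genes. The nearest protein-coding gene is fab1, which encodes a lipid kinase, 1865 bp away on the same strand. mir-31b is at chromosome X, 8993305 to 8993431, also on the minus strand. It lies in introns of a non-coding RNA gene on its own strand, lncRNA:CR43836, and of rdgA on the opposite strand, which encodes a diacylglycerol kinase of the photoreceptors.

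Total counts ran from 17462 to 72507 per library. The most abundant arm, miR-286-3p, took between 9.16% and 65.3% of a library's counts and was highest in stage 1. In stage 7 it took 9.16% in replicate 1 and 22.6% in replicate 2. Its share changes what is left to every other arm. Levels are therefore given as CPM (counts scaled to the library total) corrected with TMM factors, a scaling that rests on the bulk of the arms. These factors lay between 0.596 and 1.57. Both members were among the 85 arms abundant enough to test. TMM presumes that most arms stay level, while 81.2% of the 85 passed the edgeR test among all stages. The size of fold changes therefore depends on the scaling. The counts do not show whether reads carried molecular identifiers, and intervals on counts and shares cover counting error only.

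miR-31a-5p was scarce up to stage 3 and then rose steeply between stages 3 and 4, after which it stayed between 18651 and 25741 CPM. It had 4 and 10 counts in the libraries of stage 1, 61 and 36 in stage 2, and 27 and 19 in stage 3. In stage 4 it had 732 and 2195 counts, in stage 5 it had 1061 and 1212, in stage 6 it had 448 and 1131, and in stage 7 it had 2074 and 1699. Every library of stages 4 to 7 lay above every library of stages 1 to 3. In order from stage 1 to stage 7 its mean level was 379 ± 269, 1984 ± 916, 823 ± 95.7, 22196 ± 5013, 24039 ± 959, 19339 ± 54.3 and 21337 ± 814 CPM (each SD, n = 2). By its count in a library it ranked between 24th and 57th of the 466 arms in stages 1 to 3, and between 7th and 11th from stage 4 on. Only 251 of the 466 had a count in any library, and arms without a count ranked 91st in stage 1. In whole embryos, more cells with the miRNA and more of it per cell cannot be told apart.

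miR-31b-5p was scarce throughout and reached its highest levels later, in stages 6 and 7. Its counts were 1 and 4 in stage 1, 4 and 4 in stage 2, 13 and 14 in stage 3, and 9 and 23 in stage 4. They were 28 and 25 in stage 5, 37 and 62 in stage 6, and 90 and 74 in stage 7. In the same order its mean level was 137 ± 128, 161 ± 17.02, 492 ± 90.2, 249 ± 28.6, 563 ± 75.4, 1328 ± 376 and 928 ± 37.8 CPM (each SD, n = 2). The 4 libraries of stages 6 and 7 lay above all the earlier ones. With a single count, stage 1 replicate 1 gave 47.1 CPM with a 95% Poisson interval of 1.19 to 262, so the level in stage 1 is known only loosely. The rank of miR-31b-5p in a library was between 35th and 80th of the 466 arms, of which 251 had a count in any library. The 80th place was the single count in stage 1 replicate 1, where arms without a count ranked 91st.

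**Figure D1:**
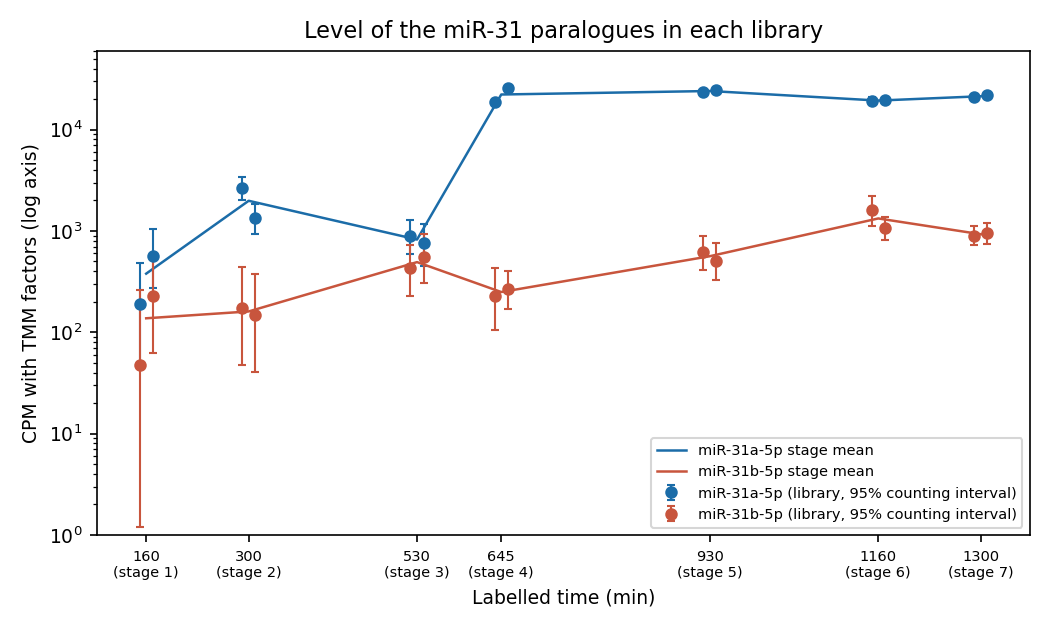
Level of miR-31a-5p (blue) and miR-31b-5p (red) in each of the 14 libraries, as CPM with TMM factors on a log axis, against the labelled time in min. Bars are 95% Poisson counting intervals, lines join stage means, and the blue points step up from at most 2631 CPM in stages 1 to 3 to at least 18651 CPM in stages 4 to 7.

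The test among all 7 stages asks whether an arm changed at all. Both members passed (edgeR quasi-likelihood test with Benjamini-Hochberg adjustment, adjusted p = 2.51e-09 for miR-31a-5p and 0.000626 for miR-31b-5p), as did 81.2% of the tested arms. The mean of stages 5 to 7 was then set against that of stages 1 to 3. miR-31a-5p ran from 188 CPM through a median of 823 to 2631 CPM in the 6 early libraries, and from 19301 through 21337 to 24717 CPM in the 6 late ones. The rise was 25.4-fold (95% interval 16.9 to 38.1; log2 fold change 4.67 ± 0.28, SE; edgeR adjusted p = 1.72e-11). miR-31b-5p ran from 47.1 through 200 to 556 CPM early and from 510 through 928 to 1594 CPM late. Its groups overlapped, since the highest library of stage 3 stood above the lowest of stage 5. The rise was 4.01-fold (2.32 to 6.93; log2 fold change 2.00 ± 0.38; edgeR adjusted p = 7.24e-05). In this comparison 50.6% of the tested arms were higher and the median log2 fold change of all 85 was 0.86, so a call by itself does not set either paralogue apart.

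Onset was read from the steps between neighbouring stages. From stage 2 to 3, from 5 to 6 and from 6 to 7, 0.00% of the tested arms passed by edgeR. Of the 12 steps of the pair, 2 passed, both rises of miR-31a-5p. The first was from stage 1 to stage 2, by 5.33-fold (95% interval 2.55 to 11.1; edgeR adjusted p = 0.00183), a step in which 15.3% of tested arms were higher. It rests on few counts, and the call ended without stage 1 replicate 1 (log2 fold change 1.79, edgeR adjusted p = 0.0568) or without stage 2 replicate 1 (1.75, edgeR adjusted p = 0.0914). The second was from stage 3 to stage 4, by 26.9-fold (13.4 to 53.8; log2 fold change 4.75 ± 0.48; edgeR adjusted p = 4.94e-07). In that step 18.8% of the arms were higher, and miR-31a-5p had the smallest p of all 85 and the 8th largest log2 fold change.

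Between those rises miR-31a-5p had a lower mean in stage 3 than in stage 2, with a log2 fold change of -1.26 ± 0.45 that did not pass (edgeR adjusted p = 0.190). In this step 0.00% of the tested arms passed by edgeR, 14 had an unadjusted p under 0.05, and DESeq2 called 2. One of the DESeq2 calls was miR-31a-5p (log2 fold change -1.44, adjusted p = 0.0459), so whether the level dipped depends on the tool. It was also called by edgeR with stage 4 replicate 1 and stage 7 replicate 2 both left out (log2 fold change -1.66), a setting that was not planned. Of 8 alternative settings, 6 left the step uncalled, as did leaving out any 1 library.

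None of the 6 steps of miR-31b-5p passed. From stage 2 to 3, from 5 to 6 and from 6 to 7, 0.00% of all tested arms passed by edgeR. From stage 4 to 5, 14.1% did. The missing calls in the steps with 0.00% thus do not set miR-31b-5p apart. Its largest upward steps were from stage 2 to stage 3 (log2 fold change 1.60 ± 0.69, edgeR adjusted p = 0.213), from stage 4 to stage 5 (1.15 ± 0.58, edgeR adjusted p = 0.188) and from stage 5 to stage 6 (1.22 ± 0.55, edgeR adjusted p = 0.681). From stage 3 to stage 4, where miR-31a-5p rose, miR-31b-5p had a log2 fold change of -0.95 with a 95% interval of -2.22 to 0.31 (edgeR adjusted p = 0.226). That interval lies wholly below the interval of miR-31a-5p, 3.75 to 5.75. From stage 1 to stage 2 the value of miR-31b-5p was 0.28 with an interval of -1.50 to 2.06, and its sign turned with DESeq2 size factors (-0.16).

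**Figure D2:**
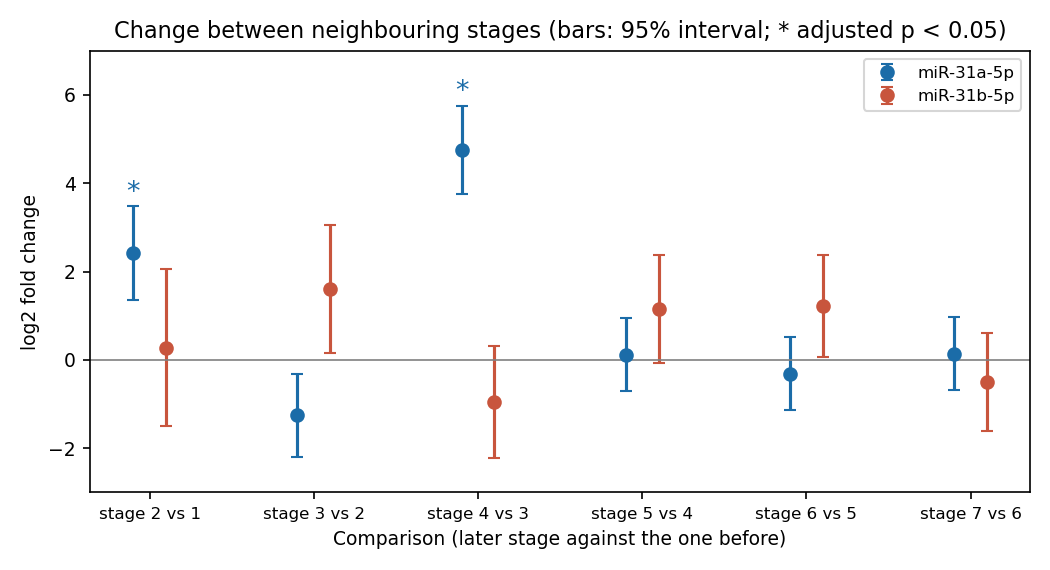
log2 fold change of miR-31a-5p (blue) and miR-31b-5p (red) from each stage to the next, with 95% intervals from the edgeR fit and an asterisk where the adjusted p was under 0.05. Both asterisks belong to miR-31a-5p, at the step into stage 2 (2.41) and the step into stage 4 (4.75).

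The first stage with at least 3 counts in both of its libraries was stage 1 for miR-31a-5p and stage 2 for miR-31b-5p. In stage 1 miR-31b-5p had 1 count in replicate 1 and 4 in replicate 2. The rule depends on abundance and depth, so it does not show that miR-31b-5p began later. A level of at least 50% of the highest stage mean was first reached by miR-31a-5p in stage 4, at 92.3%, and by miR-31b-5p in stage 6. In stage 4 miR-31b-5p stood at 18.8% of its highest mean.

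The highest stage mean of miR-31a-5p was in stage 5, followed by stages 4, 7, 6, 2, 3 and 1. The libraries of stage 5 lay within the range of stage 4, and the higher library of stage 4 stood above both of stage 7. The place of stage 4 in this order is thus within its spread. Both libraries of stage 5 (23361 and 24717 CPM) stood above those of stage 7 (20762 and 21913) and stage 6 (19301 and 19377). With DESeq2 size factors the libraries of stages 5 and 7 overlapped. From stage 4 to stage 5 the log2 fold change was 0.11 with a 95% interval of -0.71 to 0.94, and from stage 5 to stage 7 it was -0.17 with an interval of -0.998 to 0.654 (edgeR adjusted p = 0.879 and 0.939). From stage 4 to stage 5, 14.1% of the tested arms passed. Such intervals still allow a change of up to 1.92-fold upward from stage 4 to stage 5. The stages from 6 downward in this order were each separated from the next by libraries that did not overlap, although with DESeq2 size factors those of stages 3 and 1 did.

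The highest stage mean of miR-31b-5p was in stage 6, followed by stages 7, 5, 3, 4, 2 and 1. Libraries overlapped between stages 5 and 3 and between stages 2 and 1, and did not overlap at the other neighbours in this order. With library size alone those of stages 3 and 4 overlapped. With DESeq2 size factors the mean of stage 1 stood above that of stage 2, and libraries of stages 4 and 1 overlapped. Stage 6 replicate 1, the shallowest library, held the highest value at 1594 CPM from 37 counts, and stage 6 replicate 2 at 1062 CPM also stood above both libraries of stage 7 at 901 and 954 CPM. The test of stage 7 against stage 6 did not pass (log2 fold change -0.50, 95% interval -1.62 to 0.62, edgeR adjusted p = 0.863), nor did that of stage 7 against stage 5 (0.72, -0.42 to 1.86, edgeR adjusted p = 0.687). In those 2 comparisons and from stage 5 to stage 6, 0.00% of the tested arms passed in edgeR. There 1, 8 and 4 arms respectively had an unadjusted p under 0.05, and DESeq2 called none.

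The scaling touched the size of these changes more than their timing. For stage 4 against stage 3, the log2 fold changes of the tested arms shifted by a median of 0.49 with DESeq2 size factors and of 0.86 with library size alone. The value of miR-31a-5p then became 5.26 and 5.63, and that of miR-31b-5p -0.45 and -0.09. The highest stage stayed stage 5 for miR-31a-5p and stage 6 for miR-31b-5p under either. In stage 4 miR-31a-5p stood at 76.1% of its highest mean with DESeq2 size factors and at 76.8% with library size alone, against 92.3% with TMM.

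**Figure D3:**
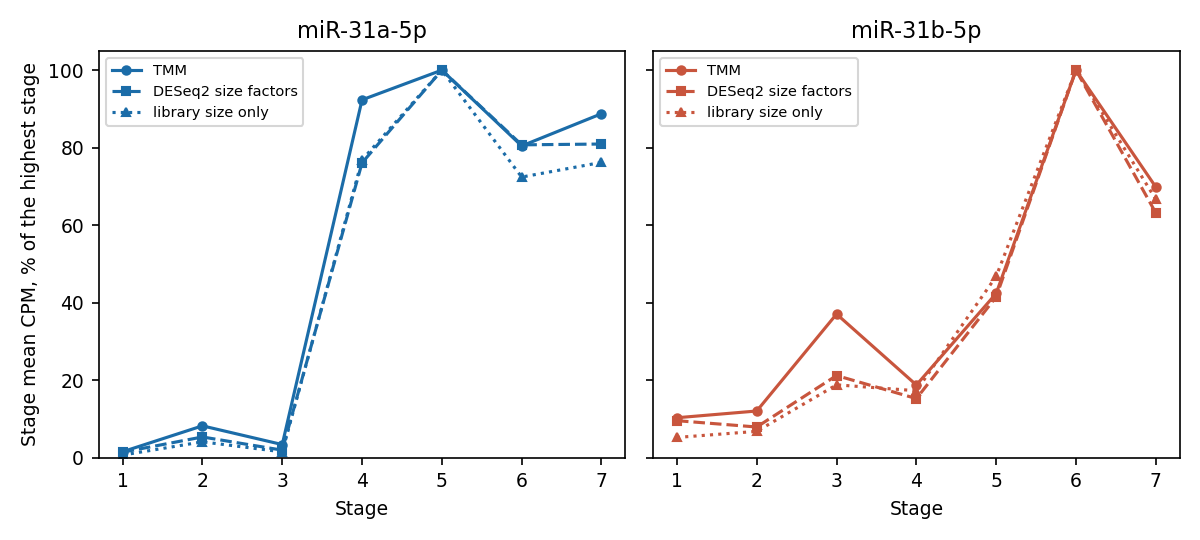
Stage mean CPM of miR-31a-5p (left) and miR-31b-5p (right) as a percentage of the highest stage mean, for TMM factors (solid), DESeq2 size factors (dashed) and library size only (dotted). Under each scaling miR-31a-5p peaks in stage 5 with at least 76.1% already present in stage 4, and miR-31b-5p peaks in stage 6.

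The ratio of the paralogues needs no scaling between libraries, because both counts come from the same library. It is a ratio of reads, and ligation and amplification can favour one sequence over another. How reads were divided between such similar sequences is also not known, and a few misassigned reads could change a small share. Of the counts of both paralogues, miR-31b-5p made up 1 of 5 and 4 of 14 in the libraries of stage 1 (20% and 28.6%), and 4 of 65 and 4 of 40 in stage 2 (6.15% and 10%). It made up 13 of 40 and 14 of 33 in stage 3 (32.5% and 42.4%). Stage 4 had shares of 1.21% and 1.04%. Stage 5 had 2.57% and 2.02%, stage 6 had 7.63% and 5.20%, and stage 7 had 4.16% and 4.17%.

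Pooled over the libraries of a stage, the share was 37.0% in stage 3 (95% exact binomial interval 26.0 to 49.1) and 1.08% in stage 4 (0.741 to 1.52). In reads, miR-31a-5p thus outnumbered miR-31b-5p 1.70 to 1 in stage 3, 91.5 to 1 in stage 4, 42.9 to 1 in stage 5, 15.9 to 1 in stage 6 and 23.0 to 1 in stage 7. Library by library, the shares of stages 4, 5, 6 and 7 did not overlap between any of these stages, with 2 libraries in each.

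The share of miR-31b-5p averaged 5.29% ± 1.63 in the 4 libraries of stages 6 and 7, against 1.71% ± 0.716 in the 4 of stages 4 and 5, and the groups did not overlap. The difference of 3.58 percentage points gave p = 0.0286 in a two-sided exact permutation test over libraries, the smallest p that 4 against 4 allows. This test, like those that follow, shuffles libraries as if all those of a group were replicates of each other. Each group pools stages whose shares differed, so these p-values do not measure replication of stages. Stages 2 and 3 (22.8% ± 17.5, n = 4) were set against stages 4 and 5 after the counts had been seen, with p = 0.0286 in the same exact permutation test. That call ended when any 1 of the stage 4 or stage 5 libraries was left out (exact permutation p from 0.0857 to 0.114). All 6 libraries of stages 1 to 3 against the 6 of stages 5 to 7, also chosen afterwards, gave 23.3% ± 13.9 against 4.29% ± 2.01 (exact permutation p = 0.00433). Here 1 early library, stage 2 replicate 1 at 6.15%, lay below the highest late library, stage 6 replicate 1 at 7.63%.

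**Figure D4:**
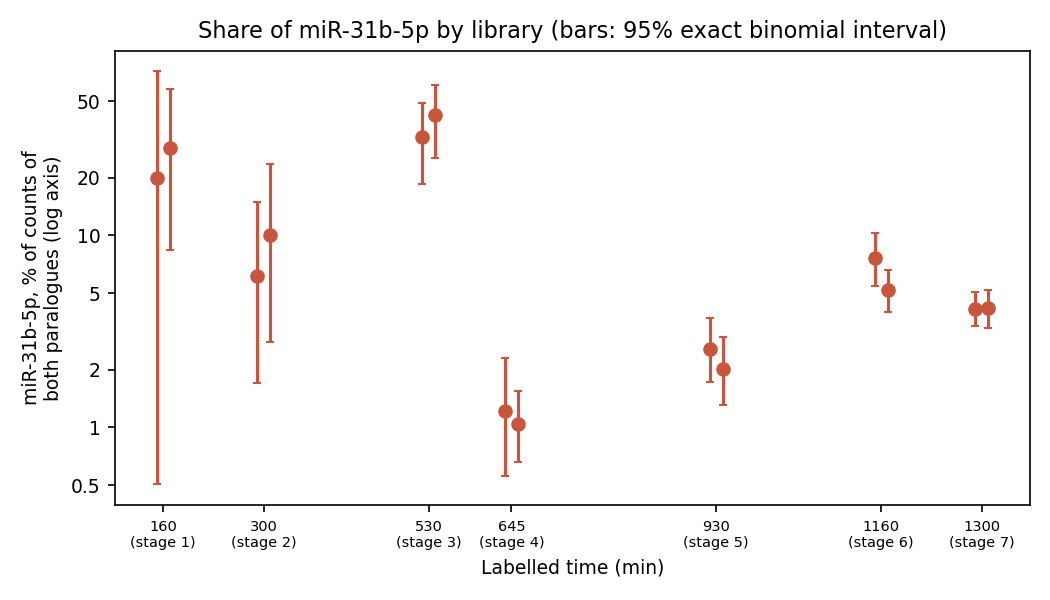
miR-31b-5p as a percentage of the counts of both paralogues in each library, on a log axis, against the labelled time in min, with 95% exact binomial intervals. The share drops from 32.5% and 42.4% in stage 3 to 1.21% and 1.04% in stage 4 and then lies between 2.02% and 7.63% in stages 5 to 7.

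Since the paralogues share a seed, their summed level is also of interest. From stage 1 to stage 7 it was 516 ± 397, 2144 ± 933, 1315 ± 5.44, 22446 ± 5042, 24602 ± 883, 20667 ± 322 and 22265 ± 852 CPM (each SD, n = 2). The sum thus followed miR-31a-5p from stage 4 on, whereas miR-31b-5p supplied 32.5% and 42.4% of it in the libraries of stage 3.

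The other strand of each hairpin was nearly absent. miR-31a-3p had 2 counts against 10709 of miR-31a-5p over all libraries, a share of 0.0187% (95% exact binomial interval 0.00226 to 0.0674), with 1 count each in stage 5 replicate 2 and stage 6 replicate 2. miR-31b-3p had none against 388 counts of miR-31b-5p, where 3 counts would be a share of 0.773% and the 95% exact binomial interval reached 0.946%.

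The arms with a time course most like that of miR-31a-5p were found by Pearson's r over the 7 stage means of log2 CPM. They were miR-8-5p (r = 0.993), miR-252-5p (0.975), miR-8-3p (0.973), miR-316-5p (0.972) and miR-14-5p (0.952). The points share their libraries and scaling, and ranking by Spearman's rho kept 2 of these 5, and scaling by library size alone kept 3. In stage 1 miR-252-5p, miR-316-5p and miR-14-5p stood at 5.49 log2 CPM, the value of an arm without counts. Part of their r therefore rests on that floor. miR-8 is known from epithelia and growth control, and miR-14 from cell survival and metabolism. From stage 3 to stage 4 miR-8-3p rose by 3.21 ± 0.404 and miR-8-5p by 3.62 ± 0.788 on the log2 scale (edgeR adjusted p = 7.64e-06 and 0.00138), beside 4.75 ± 0.48 for miR-31a-5p. The differences between these arms were not tested.

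The arms most like miR-31b-5p were miR-281-3p (r = 0.918 over the 7 stage means), miR-981-3p (0.91) and miR-281-1-5p (0.906). This choice was unstable, since ranking by Spearman's rho kept 0 of the 3, ranking over the 14 libraries kept 1, and either other scaling kept 2. In stages 1 and 2 miR-981-3p stood at 5.49 log2 CPM, the value of an arm without counts. Between the paralogues themselves r was 0.653 over the stage means and 0.649 over the 14 libraries, which put miR-31b-5p 41st among the other 84 arms in likeness to miR-31a-5p.

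**Figure D5:**
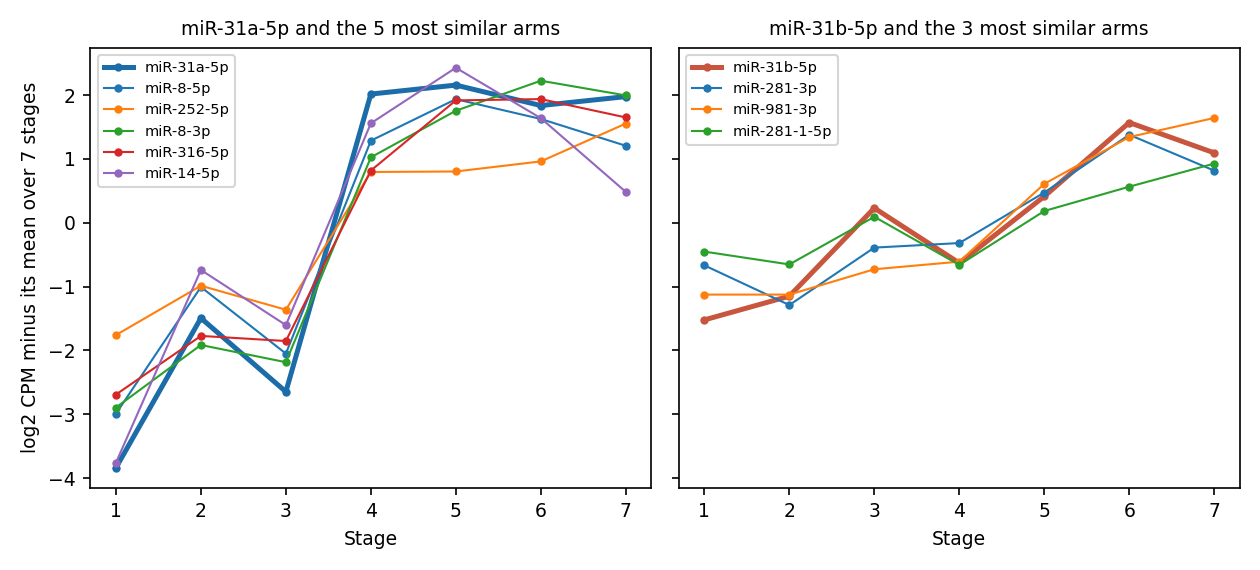
log2 CPM of each arm minus its mean over the 7 stages, for miR-31a-5p with its 5 most similar arms (left) and miR-31b-5p with its 3 most similar arms (right). miR-31a-5p and its neighbours step up at stage 4, while miR-31b-5p and its neighbours are highest in stage 6 or 7, and miR-31b-5p and miR-281-1-5p also have a smaller high in stage 3.

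Other miRNAs known from fly epithelia and gut were taken as a list, which also holds miR-263a and miR-263b, known from sensory bristles. Of 19 listed arms besides the members, 12 were tested, and late against early 8 were higher, 3 lower and 1 did not pass. The 8 higher and 3 lower of 12 stand beside 43 higher and 25 lower of 85 tested arms, and the median log2 fold change was 1.38 beside 0.86. The most abundant were miR-263a-5p (log2 fold change 1.72 ± 0.173), miR-8-3p (4.31 ± 0.246), miR-184-3p (0.96 ± 0.179) and miR-281-2-5p (1.81 ± 0.304). All of these were among the 8 higher arms. Those 8 include 2 arms of miR-8 and 3 of miR-281, so they are not 8 separate miRNAs. The lower arms were both products of the miR-305 hairpin, at -2.06 ± 0.305 for its 3p arm and -2.38 ± 0.434 for its 5p arm. The other lower arm was miR-275-3p, at -4.60 ± 0.357. From stage 3 to stage 4, where miR-31a-5p rose, miR-8-3p and miR-8-5p were the arms of the 12 that passed as higher, and miR-275-3p passed as lower (-1.49 ± 0.528, edgeR adjusted p = 0.0345). Those 2 higher and 1 lower of 12 stand beside 16 higher and 14 lower of 85.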

How the data were processed

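The authors deposited raw read counts per mature miRNA arm for 14 embryo libraries. Bowtie and HTSeq were used with dm6, per the submitters' processing notes; the versions, the annotation release and how reads matching several miRNAs were treated were not given in the sources used here. Columns were matched to libraries by title, and stages came from the labels. Total counts of 17462 to 72507 per library limit the precision of scarce arms.

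Tests used edgeR 4.0.16 (R 4.3.3): filterByExpr by stage (85 arms), TMM factors, 1 coefficient per stage, quasi-likelihood tests, Benjamini-Hochberg adjustment over the 85 arms and a threshold of 0.05. Intervals of log2 fold changes came from the F statistic. log2 CPM used a prior count of 2. Shares were tested over libraries with at least 20 counts of both paralogues by exact permutation in Python 3.11.15, with no minimum for early against late. Alternatives were DESeq2 1.42.0, other scalings and filters, and leaving out libraries. The edgeR code was tested on simulated data for late against early only. The members and lists were chosen with earlier results of these data known. Named arms are the members, their 3p arms, the 5 and 3 most similar arms, the 4 most abundant listed arms and miR-286-3p. The arms of miR-305 and miR-275-3p were named after their values were seen. Replicates were numbered in accession order and not paired.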

Additional observations from a re-analysis of the deposited data

How the results depend on the processing

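Both members kept their calls among all stages and late against early under every alternative that could be run. Without 1 library, the late against early log2 fold change ran from 4.11 to 4.83 for miR-31a-5p and from 1.56 to 2.22 for miR-31b-5p, and the remaining library of a stage was assumed to vary like the others. Under the other settings it ran from 3.97 to 5.65 and from 1.63 to 2.96. With a mean count of at least 50, miR-31b-5p was not tested and 4 listed epithelial arms were higher instead of 8. Some of the 8 fell below that filter, but this does not account for every lost call. In that setting 34 arms passed late against early in place of 68, and 33 among all stages in place of 69. With stages 1 and 2 or stages 2 and 3 fitted alone, miR-31b-5p did not pass the filter. The number of passing steps between neighbouring stages ran from 1 to 2 without 1 library. Arms passing from stage 3 to stage 4 fell from 30 to 16 without stage 4 replicate 2; the cause was not tested. The share of miR-31b-5p in stages 6 and 7 exceeded that in stages 4 and 5 by 2.80 to 3.96 percentage points without 1 library. The share in stages 2 and 3 exceeded that in stages 4 and 5 by 14.5 to 26.6 points. For stages 1 to 3 against 5 to 7 the excess was 15.1 to 22.4 points. With the log2 ratio of counts in place of the share, all 3 comparisons passed. At 1 to 14 counts per library in stages 1 to 3, depth limits what can be said of miR-31b-5p there. No paired analysis was possible because the labels carry no replicate numbers.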
